A study of Mus musculus with 8 samples.

Results

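Integrins are heterodimers of an α and a β subunit that anchor epithelial cells to the extracellular matrix, and 10 of their genes are described here in mpkCCD cells, clone 11 of a mouse cell line of the cortical collecting duct. The genes were listed by name: Itga2, Itga3, Itga6, Itgav, Itgb1, Itgb3, Itgb4, Itgb5, Itgb6 and Itgb8. Each was given a window of its RefSeq span plus 10 kb on either side in mm10, and they are 10 of 21887 protein-coding genes. The genes were chosen by name with the covered bases of these windows, dDAVP against vehicle, already known, so those values are a description and carry no test. Chromatin immunoprecipitation followed by sequencing (ChIP-seq) had mapped histone H3 acetylated at lysine 27 (H3K27ac), a mark of active promoters and enhancers. The study asked how this mark differs after vasopressin. One group had received 0.1 nM dDAVP, a vasopressin analogue selective for the V2 receptor, for 24 h, and the other its vehicle for 24 h. All cells of both groups had been grown on permeable supports in medium with insulin, 50 nM dexamethasone, triiodothyronine and epidermal growth factor, and had then been kept 24 h without serum and hormones, at passages 6 to 10. There was 1 H3K27ac library and 1 input library per treatment in each of 2 experiments, 8 libraries in all, and nothing in the labels says how far the experiments were separate. The values are bases covered by the authors' called peaks in the 4 lists, 1 per H3K27ac library.

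The β6 subunit pairs with αv alone, and αvβ6 is an epithelial receptor that binds fibronectin, tenascin and the latent form of TGF-β, which it can activate. αvβ8 also activates latent TGF-β, and αvβ5 and αvβ3 bind vitronectin. α6β4 binds laminins and forms the core of hemidesmosomes, α3β1 and α6β1 bind laminins of the basement membrane, and α2β1 binds collagens. The collecting duct rests on a basement membrane rich in laminin and type IV collagen.

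The sequences just before the starts of 3 of these genes are shown, since these hold the starts called in every list with the highest fold and those that a dDAVP list did not call. Itgb6 has 2 RefSeq starts 48.9 kb apart. The first was called in 3 lists and the second in all 4. The start of Itgb1 lay under the peak with the highest fold over local background, a value of the authors' peak caller, of any of the 10 genes in every list, and that of Itga2 was called in 3 lists. Each line gives the 250 bases before the start, 5′ to 3′ on the gene's strand, from RefSeq (GRCm38.p6), and capitals mark CpG dinucleotides.
Itgb6, first start, chr2:60722604-60722853, minus strand: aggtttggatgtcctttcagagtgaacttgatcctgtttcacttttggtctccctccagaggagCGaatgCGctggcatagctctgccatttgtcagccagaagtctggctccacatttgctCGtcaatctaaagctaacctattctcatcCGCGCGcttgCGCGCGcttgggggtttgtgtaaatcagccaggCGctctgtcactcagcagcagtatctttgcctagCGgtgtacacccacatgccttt
Itgb6, second start, chr2:60673694-60673943, minus strand: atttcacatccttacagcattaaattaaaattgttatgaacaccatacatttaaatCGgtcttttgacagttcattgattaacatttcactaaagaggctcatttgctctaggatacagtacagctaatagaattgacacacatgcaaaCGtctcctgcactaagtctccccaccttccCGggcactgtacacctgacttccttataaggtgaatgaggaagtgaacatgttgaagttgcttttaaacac
Itgb1, start, chr8:128685404-128685653, plus strand: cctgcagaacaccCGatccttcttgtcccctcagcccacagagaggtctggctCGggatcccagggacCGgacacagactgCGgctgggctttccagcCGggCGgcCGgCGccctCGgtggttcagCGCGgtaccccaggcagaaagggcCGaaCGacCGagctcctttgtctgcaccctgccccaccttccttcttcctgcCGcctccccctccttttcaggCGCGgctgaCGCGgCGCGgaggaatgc
Itga2, start, chr13:114932101-114932350, minus strand: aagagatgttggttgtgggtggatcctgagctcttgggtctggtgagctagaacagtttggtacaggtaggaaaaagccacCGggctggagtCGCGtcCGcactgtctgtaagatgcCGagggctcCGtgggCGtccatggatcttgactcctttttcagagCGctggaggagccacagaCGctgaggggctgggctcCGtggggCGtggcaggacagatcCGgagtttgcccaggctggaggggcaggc

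These windows held 11 CpG at the first start of Itgb6, 3 at its second start, 21 at Itgb1 and 12 at Itga2, against a median of 10 over 21263 start sequences of protein-coding genes. Their GC contents were 52.0%, 38.0%, 68.0% and 60.8% in the same order, against a median of 55.6%. Of the 10 integrin genes 7 had a start sequence, 9 sequences in all. A search of both strands for Sp/KLF letters (GGGCGG) matched 4 of the 9, at both starts of Itga3, at Itgb1 and at Itgb5, and 42.6% of all start sequences. TEAD letters (GGAATG) matched 1 of 9, Itgb1, against 11.7% of all. The AP-1 letters TGANTCA matched 0 of 9, against 6.13% of all. Letters of the cAMP response element, TGACGTCA, matched 0 of 9, against 1.92% of all start sequences. Ets letters, CCGGAAGT, also matched 0 of 9, against 3.79%, and the TATA letters, TATAAA, matched 0 of 9, against 11.6%. Matches of the letters searched did not overlap one another in these 9 sequences, and a match or its lack says nothing of binding.

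The 4 lists held between 20124 and 39745 peaks, called from 27923780 to 32705755 immunoprecipitated tags, so lists of similar depth differed in length. All covered bases with dDAVP were 0.951 times those with vehicle in experiment 1 and 0.590 times in experiment 2, and each ratio below stands beside these. Starts were called in all 4 lists for 7 of 7 principal cell markers and 6 of 6 epithelial markers, and for 0 of 6 leukocyte, 0 of 4 endothelial, 0 of 4 fibroblast and 0 of 3 platelet markers. A start was called in no list for 5 of 6 leukocyte, 4 of 4 endothelial, 2 of 4 fibroblast and 1 of 3 platelet markers. Among these other markers, Cd3e, Itgam, Lyz2, Cdh5, Kdr, Col1a2 and Pdgfra had 0 covered bases in every list. Others were covered. Itga2b, of the platelet list, had 24270 and 11712 bp with dDAVP and 20463 and 15467 with vehicle. Itgb2, of the leukocyte list, had 10245 and 4031 bp with dDAVP and 10844 and 7386 with vehicle. Summed covered bases of the 7 principal cell windows were 124575 and 60780 with dDAVP and 120524 and 64365 with vehicle, and of the 6 epithelial windows 119245 and 59871 with dDAVP and 124149 and 78243 with vehicle. Those of the 6 leukocyte windows were 13085 and 4031 with dDAVP and 13729 and 8530 with vehicle, and of the 4 endothelial windows 8223 and 3809 with dDAVP and 9420 and 7702 with vehicle. The 4 fibroblast windows held 5549 and 1018 bp with dDAVP and 6711 and 3566 with vehicle, and the 3 platelet windows 29180 and 12071 with dDAVP and 26159 and 18519 with vehicle. The part of other cell types in the results was not tested. Fewer cells with the mark and less of it per cell cannot be told apart in such bulk samples.

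All 10 integrin windows were covered in all 4 lists, as were 57.4% of protein-coding genes. Fewer bases were covered with dDAVP than with vehicle in both experiments for 6 of 10 genes (Itga2, Itga3, Itga6, Itgav, Itgb6 and Itgb8), against 51.4% of the 12558 genes covered in all 4 lists. More were covered with dDAVP in both for 0 of 10, against 2.84%. Itgb1, Itgb3, Itgb4 and Itgb5 had more with dDAVP in experiment 1 and less in experiment 2. The share of 6 in 10 lies near that of all genes and is no result about integrins. The median of the mean log2 ratio (dDAVP over vehicle) was -0.36 for the 10 genes and -0.27 for all genes. Set against the ratio of all covered bases, 4 of 10 (Itga2, Itgav, Itgb6 and Itgb8) had less with dDAVP in both experiments, where 16.2% of all genes did, and 3 of 10 (Itga3, Itgb1 and Itgb4) had more, where 43.6% did. Itga3 thus changed sides with the scaling. Divided in this way, the ratios of Itgb6 were 0.814 and 0.972, so in experiment 2 it was lower by about as much as its whole list. An exact two-sided permutation test within 2 pairs allows no p below 0.5, and no test was made.

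**Figure D1:**
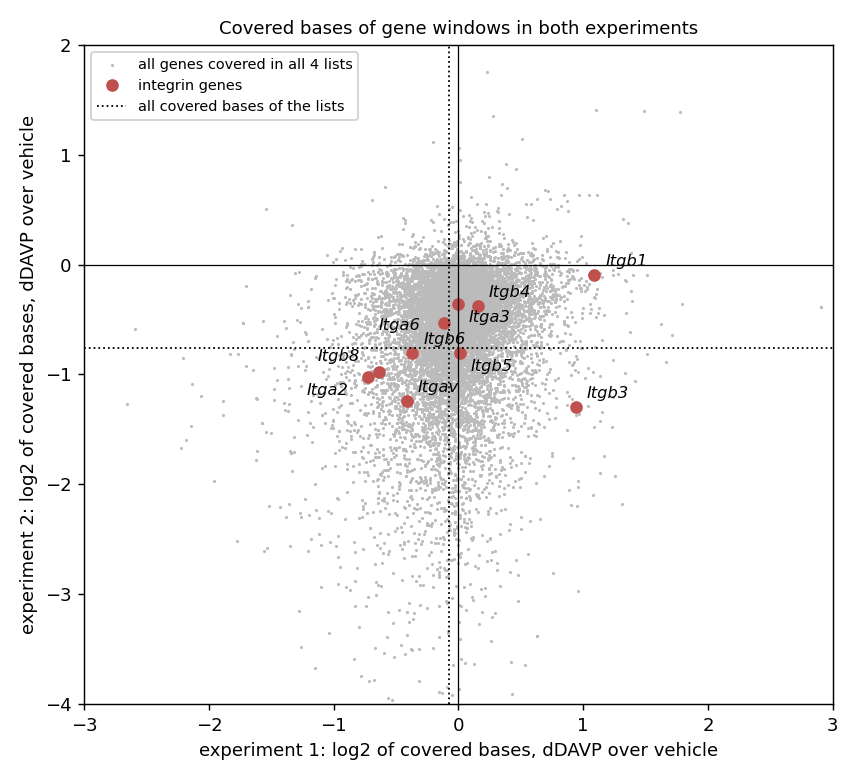
Each point is a gene, placed by the log2 of covered bases with dDAVP over vehicle in experiment 1 (x axis) and experiment 2 (y axis); red points are the 10 integrin genes, grey points the 12558 genes covered in all 4 lists (7 lie outside the axes), and dotted lines mark the ratios of all covered bases, 0.951 and 0.590. The integrin genes lie within the grey cloud, all 10 below 0 in experiment 2, with Itgb1 and Itgb3 to the right in experiment 1.

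Itgb6 (chromosome 2, 60598292 to 60722603, minus strand) differed by more bases than any other gene of the set in experiment 1 and in experiment 2. Its window held 36063 and 23824 covered bp with dDAVP in experiments 1 and 2, against 46611 and 41549 bp with vehicle. Both dDAVP values lay below both vehicle values. The ratios were 0.774 and 0.573, and the mean log2 ratio was -0.59 ± 0.31 (SD, n = 2 pairs). Both ratios at or below those of Itgb6 were found for 761 of the 12558 genes, Itgb6 among them, so its ratios were not unusual. The differences (dDAVP minus vehicle) were -10548 and -17725 bp, and 13 genes had larger ones of the same sign in both experiments.

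In experiment 2 the difference at Itgb6 lay mainly at the 5′ side of the gene, and in experiment 1 it was more spread. Merged over the 4 lists, the region of the broad peak described next held 25378 and 19433 bp with dDAVP. With vehicle it held 26941 and 28133 bp. A further 5 regions, all deeper in the gene, were called in vehicle replicate 1 alone. A broad peak downstream of the first start was 18996 bp wide in dDAVP replicate 1 and 18224 bp in dDAVP replicate 2, against 26941 bp in vehicle replicate 1 and 27450 bp in vehicle replicate 2. Its edge far from the start differed by 8 bp in experiment 1 and 1105 bp in experiment 2. The edge near the start lay 7937 and 8121 bp further into the gene with dDAVP, at 15623 and 15755 bp from the first start, against 7686 and 7634 bp with vehicle. The stretch beyond that edge held separate dDAVP peaks of 706 and 5676 bp in experiment 1 and 1 peak of 1209 bp in experiment 2. The core shared by all 4 lists spanned 18224 bp (chromosome 2, 60688625 to 60706848). The authors' fold over local background of this peak was 4.32 and 4.67 in the dDAVP lists, at percentiles 70.8 and 66.7 of their lists, and 6.85 and 7.88 in the vehicle lists, at percentiles 87.9 and 90.6. The lists differ in length, so these percentiles place the peak within its own list only.

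Of 37 vehicle peaks of 20 kb or more that overlap between the vehicle lists, 24.3% held 2 or more dDAVP peaks of their own experiment in both, and in 13.5% the same edge of the widest dDAVP peak lay at least 5 kb inside in both. The Itgb6 peak was among both. These limits were set after its peaks had been seen. Gm33436, a long noncoding RNA gene (chromosome 2, 60692600 to 60717699), overlaps this stretch, and held 20763 and 15458 of the covered bp with dDAVP, against 22318 and 23053 with vehicle. Reads of the mark cannot be assigned to either gene.

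**Figure D2:**
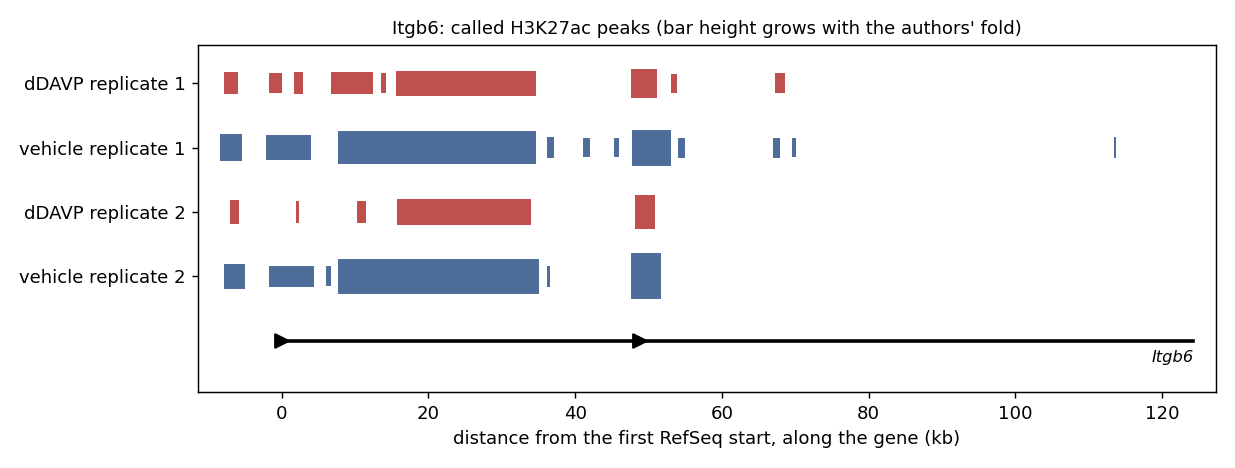
Bars are called H3K27ac peaks along Itgb6 in each list, placed by distance from the first RefSeq start in kb (x axis), taller with the authors' fold; the black line is the gene and its arrowheads the 2 starts. The broad peak begins at about the same distance in both dDAVP lists, 15623 and 15755 bp, and nearer the start in both vehicle lists, 7686 and 7634 bp.

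The starts of Itgb6 were called unequally. Within 1000 bp of the first start, 1054 and 0 bp were covered with dDAVP, against 2001 and 2001 bp with vehicle. The window of 2001 bp was thus full in both vehicle lists and empty in dDAVP replicate 2, the shortest list. Where called, the peak at this start had a fold of 2.50 with dDAVP and of 4.03 and 3.04 with vehicle. These lay at percentiles 22.1, 65.9 and 36.5 of their lists. The nearest peak of dDAVP replicate 2 inside the gene was 424 bp wide and began 1897 bp downstream of the start. The second start was covered by 2001 and 1754 bp with dDAVP and by 2001 bp in each vehicle list. Its peak was the highest by fold in the gene's window in every list, 5.50 and 7.25 with dDAVP and 7.98 and 11.3 with vehicle, at percentiles 81.0, 92.5, 93.3 and 98.1 of these lists in that order. Of the bases printed above for the first start, 250 and 0 were covered with dDAVP and 250 and 250 with vehicle, and for the second start all 250 were covered in every list.

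Of the αv subunit and its partners β3, β5 and β8, Itgav and Itgb8 had fewer covered bases with dDAVP in both experiments, and Itgb5 and Itgb3 in experiment 2 only. Itgav, which encodes αv (chromosome 2, 83722303 to 83806917), had 10162 and 2893 bp with dDAVP, against 13511 and 6833 bp with vehicle, and ratios of 0.752 and 0.423. Each dDAVP value lay below the vehicle value of its experiment, and the mean log2 ratio was -0.83 ± 0.59 (SD, n = 2 pairs). Its start was called in all 4 lists, in peaks of 7006 and 2121 bp with dDAVP and 6743 and 2959 bp with vehicle. In experiment 1 the start peak was thus wider with dDAVP, while the window held 4 further peaks with dDAVP and 6 with vehicle.

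Itgb8, the β8 subunit gene (chromosome 12, 119162803 to 119238276), had 5615 and 1247 bp with dDAVP, against 8741 and 2450 bp with vehicle. The ratios were 0.642 and 0.509, with a mean log2 ratio of -0.81 ± 0.24 (SD, n = 2 pairs). In experiment 2 its start peak was 1247 bp wide with dDAVP, the only peak of the window, and 1830 bp with vehicle, beside 1 other peak of 620 bp.

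Itgb5, the β5 subunit gene (chromosome 16, 33829665 to 33949338), had 63572 and 14429 bp with dDAVP, against 62976 and 25277 bp with vehicle. For this window the experiments went opposite ways, with 596 bp more with dDAVP in experiment 1 and a ratio of 0.571 in experiment 2. Its flank includes part of the gene Umps, where 1888 bp were covered in dDAVP replicate 1 and 0 in the other lists. Without flanks the Itgb5 ratios were 0.988 and 0.569. In experiment 1 the Itgb5 ratio was 0.981 with peaks of -log10 q of at least 5 and 1.06 with peaks of fold 5 or more. In experiment 1 its window was covered to similar shares under both treatments, 45.5% with dDAVP and 45.1% with vehicle, and in experiment 2 10.3% with dDAVP and 18.1% with vehicle. Of its covered bases in any list, 39.8% were called in both lists of experiment 1 and in none of experiment 2.

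Itgb3, the β3 subunit gene (chromosome 11, 104608000 to 104670476), had 1 peak in every list, inside the gene and at neither gene end. The peak was 4839 and 587 bp wide with dDAVP, against 2521 and 1442 bp with vehicle, so the ratios were 1.92 and 0.407. Its percentiles by fold were 57.7 and 8.19 in the dDAVP lists and 57.0 and 17.3 in the vehicle lists. It had the lowest fold of the 10 genes in both lists of experiment 2.

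**Figure D3:**
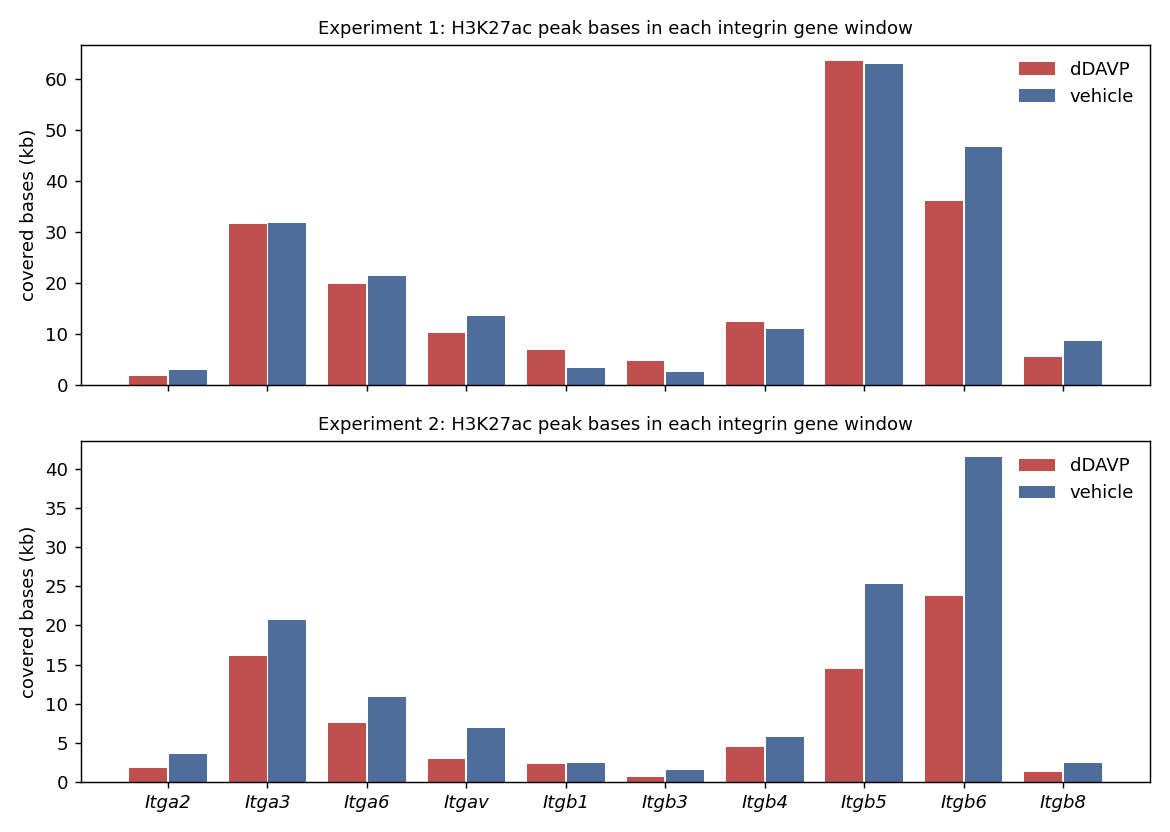
Bars give the covered bases in kb of each integrin gene window (y axis), dDAVP in red and vehicle in blue, in experiment 1 (top) and experiment 2 (bottom). Itgb5 has the most in both lists of experiment 1 and Itgb6 in both lists of experiment 2; Itga2, Itgb1, Itgb3 and Itgb8 stay below 9 kb.

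Among the laminin receptors, Itga3, the α3 subunit gene (chromosome 11, 95044475 to 95076844), had the largest covered share of its window in all 4 lists, 60.4% and 30.7% with dDAVP and 60.6% and 39.5% with vehicle. Covered bases were 31623 and 16070 with dDAVP, against 31732 and 20667 with vehicle, and the ratios were 0.997 and 0.778. Most of these bases were in its flanks, 17108 and 10344 bp with dDAVP and 20000 and 12805 bp with vehicle. The shares above are thus those of the window and not of the gene. In the gene span without flanks Itga3 had more with dDAVP in experiment 1, with a ratio of 1.24. A broad peak over its first start was 26768 bp wide in dDAVP replicate 1 and 27429 bp in vehicle replicate 1. In experiment 2 the dDAVP list had 4 peaks within the span of the 1 vehicle peak of 24268 bp, and the widest was 10438 bp. Part of the window belongs to Pdk2, a pyruvate dehydrogenase kinase gene, with 4685 and 1169 covered bp with dDAVP and 6897 and 1909 with vehicle.

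Itga6, the α6 subunit gene (chromosome 2, 71786886 to 71858427), had 19814 and 7468 bp with dDAVP, against 21487 and 10810 bp with vehicle, and ratios of 0.922 and 0.691. In the gene span without flanks the ratio of experiment 1 was 1.06, and with lists cut to equal length within each experiment it was 1.05. It held 5 regions called in all 4 lists, as many as Itgb5 and more than the others. Itgb4, the β4 subunit gene of hemidesmosomes (chromosome 11, 115974725 to 116008412), had 12340 and 4402 bp with dDAVP, against 11074 and 5721 bp with vehicle. Its ratios, 1.11 and 0.769, lay on both sides of 1. Most of these bases were in its flanks, 9337 and 3172 bp with dDAVP and 8385 and 4396 bp with vehicle, where Sap30bp and Galk1 also lie. Sap30bp held 810 and 0 of them with dDAVP and 652 and 0 with vehicle. Galk1 held 1418 and 484 with dDAVP and 1621 and 797 with vehicle. The flank region from 115967586 to 115971967, called in all 4 lists, lay in neither neighbour.

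Itgb1 encodes β1, a partner of α2, α3 and α6 among others (chromosome 8, 128685654 to 128733579). Its start peak had the highest fold of the 10 genes in every list, 8.70 and 10.4 with dDAVP and 11.5 and 17.5 with vehicle, at percentiles 96.2, 99.1, 99.4 and 100.0 in that order. This peak was 3974 and 2279 bp wide with dDAVP, against 3293 and 2442 bp with vehicle. It was the only peak of the window in 3 lists. In dDAVP replicate 1 there were 4 further peaks of 259 to 1336 bp, at percentiles of 53.6 or less, so the window held 7010 bp there and the ratio was 2.13 in experiment 1 and 0.933 in experiment 2. Itga2, the α2 subunit gene (chromosome 13, 114833081 to 114932100), had 1875 and 1741 bp with dDAVP, against 3094 and 3545 bp with vehicle. Both dDAVP values lay below both vehicle values, as at Itgb6, with ratios of 0.606 and 0.491 and a mean log2 ratio of -0.87 ± 0.21 (SD, n = 2 pairs). Within 1000 bp of its start 908 and 0 bp were covered with dDAVP and 1070 and 1112 bp with vehicle. Where called, this start peak had a fold of 2.80 with dDAVP and of 2.43 and 2.74 with vehicle. These lay at percentiles 40.8, 16.7 and 23.2 of their lists. The Itga2 peak called in all 4 lists lay inside the gene.

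A start was called in all 4 lists for 8 of 10 genes, against 45.9% of protein-coding genes. All 10 windows were covered in all 4 lists, so the closer background is the 12558 genes covered in all 4 lists. A start was called in all 4 lists for 10044 genes. The share of 8 in 10 lies near that of these covered genes and is no result about integrins. The exceptions were Itga2 and Itgb3. For Itga6, Itgb3 and Itgb4 either gene end was used in place of a start. Itgb6 counted through its second start.

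The windows held 72 regions formed by merging the 4 lists. Of these, 24 were called in all 4 lists (33.3%, against 36.2% of all 45705 regions), 0 in both dDAVP lists alone and 1 in both vehicle lists alone, which lay in Itgb6. Regions of both vehicle lists alone made up 1.39% of these regions and 2.51% of all. A further 8 were called in both lists of experiment 1 alone (11.1%, against 16.0% of all) and 33 in 1 list (45.8%, against 31.2% of all). Of the 24 regions in all 4 lists, 14 had fewer covered bases with dDAVP in both experiments, against 51.3% of all such regions, and 0 had more in both, against 4.78%. Both shares are near the background.

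Counted by base rather than by region, Itgb6 stood apart within the set. Both vehicle lists and no dDAVP list covered 6606 bp of its window, 12.9% of its bases covered in any list. This class held 2.33% of all covered bases of the series. Of 21887 genes, 2 had more such bases, counted without regard to window length, and 224 had more bases covered in any list. The share of 12.9% was not ranked over genes. Among the other integrin genes Itga2 had 313 bp of this class, Itgb8 264, Itgav 140 and Itga6 23, and the remaining 5 had 0. The pieces in Itgb6 included 1365 and 1152 bp between 12400 and 15622 bp downstream of the first start, and 1208 and 1553 bp between 54 and 4039 bp downstream. The reverse class, bases called with dDAVP in both experiments but never with vehicle, held 0 bp in all 10 windows. That is what most genes showed, since 434 of 21887 had any such base and the class made up 0.0808% of all covered bases.

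**Figure D4:**
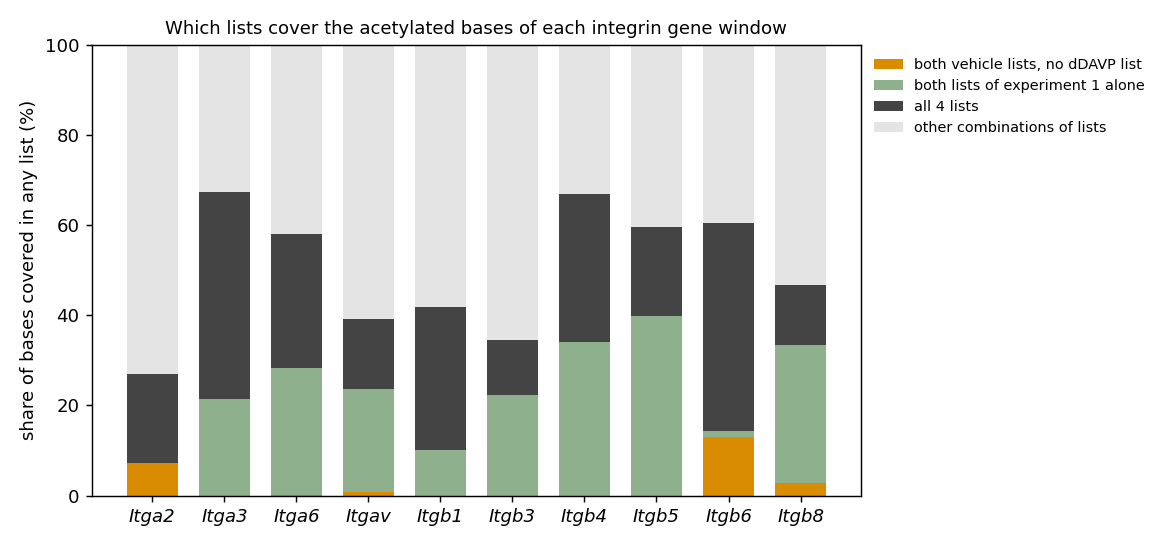
Stacked bars give, for each integrin gene window, the share in % of the bases covered in any list (y axis) that fell to both vehicle lists and no dDAVP list, to both lists of experiment 1 alone, to all 4 lists, or to other combinations. The first class makes up 12.9% in Itgb6 and 7.31% in Itga2, and at most 2.83% in the other 8; all 4 lists share 46.3% of Itgb6 and 45.7% of Itga3.

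Other genes of integrin adhesion were counted in the same way, as lists chosen with earlier results of these data known. Of 17 other integrin genes 9 were covered in all 4 lists, with 7 lower with dDAVP in both experiments and 0 higher. Itga5, the α5 subunit of the fibronectin receptor, had 806 and 510 bp with dDAVP, against 3734 and 921 with vehicle. Itga1, a collagen receptor subunit, had 8083 and 2959 bp with dDAVP, against 9868 and 4944 with vehicle. Itga11, another collagen receptor subunit, had 2943 and 1257 bp with dDAVP, against 3522 and 1435 with vehicle. Itgal, a leukocyte subunit, had 671 and 157 bp with dDAVP, against 746 and 422 with vehicle. No covered base was found in any list for 6 of the 17, which were Itga4, Itga8, Itgad, Itgam, Itgax and Itgbl1. Of all 21887 protein-coding genes 7189 had none either, and 57.4% were covered in all 4 lists.

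Of 21 extracellular ligand genes 16 were covered in all 4 lists, with 11 lower with dDAVP in both experiments and 1, Lamb2, higher. Col4a1, a chain of basement membrane collagen, had 2902 and 707 bp with dDAVP, against 7029 and 6280 with vehicle. Its neighbour Col4a2 had 13796 and 4918 bp with dDAVP, against 20998 and 12400 with vehicle. Both dDAVP values lay below both vehicle values at Col4a1, as they did at Tgfb2, Lama3 and Fn1, given below. Tgfb2, a TGF-β gene, had 3965 and 2950 bp with dDAVP, against 6436 and 5452 with vehicle, and Lama3, a laminin chain gene, 701 and 599 bp with dDAVP against 1362 and 1933 with vehicle. Of the usual partners of αvβ6, Fn1 (fibronectin) had 1904 and 1789 bp with dDAVP, against 1937 and 2002 with vehicle. Tgfb1, whose latent product αvβ6 binds, had 4690 and 469 bp with dDAVP, against 4969 and 3336 with vehicle. Tnc (tenascin C) was covered in vehicle replicate 2 alone, by 1693 bp.

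Of 23 cytoplasmic adhesion partners 21 were covered in all 4 lists, with 11 lower with dDAVP in both experiments and 0 higher. Parva, an actin-binding parvin, had 5188 and 1868 bp with dDAVP, against 7018 and 4488 with vehicle. Tln1, talin, which links β tails to actin, had 7031 and 2859 bp with dDAVP, against 9074 and 6562 with vehicle. Vcl, vinculin, had 20275 and 5105 bp with dDAVP, against 24620 and 8617 with vehicle, and the kinase gene Src 27051 and 9242 bp with dDAVP against 31882 and 18059 with vehicle. Of 9 hemidesmosome genes 6 were covered in all 4 lists, with 4 lower in both and 0 higher. These were Krt8 and Krt18 (keratins of simple epithelia), Dst and Cd9, and Krt5 and Krt14, keratins of stratified epithelia, had 0 covered bases. Against the 51.4% of all genes, the shares lower in both were 77.8%, 68.8%, 52.4% and 66.7% in the order of the lists given here. Medians of the mean log2 ratio were -0.64, -0.41, -0.43 and -0.14 in that order, against -0.27 for all genes. Set against the ratio of all covered bases, the counts lower and higher with dDAVP in both experiments were 4 and 1 for the other integrins and 6 and 5 for the ligands. They were 6 and 8 for the cytoplasmic partners and 1 and 3 for the hemidesmosome genes, where 16.2% of all genes were lower and 43.6% higher.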

How the data were processed

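H3K27ac ChIP-seq peak lists of mpkCCD cells with dDAVP or vehicle (n = 2 experiments each) were analysed. Per the file headers, the authors made each list from 1 library and its own input by broad peak calling (MACS 2.1.1.20160309, q limits 0.01 and 0.1), with no pooling. BWA, SAMtools and mm10 are named in the submitters' processing notes. Deposited values per peak are the pileup signal, the fold over local background, and the -log10 p-value and -log10 q-value, whose column names were lost. They describe or filter peaks within a list only. Lists were attached to the input records, and their headers name the H3K27ac library. Peak names of experiment 2 carry the number 3. Peak width is end minus start plus 1, as deposited.

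Peaks on assembled chromosomes were kept. Bases of a list inside a gene's RefSeq span (GRCm38.p6, the mm10 assembly) plus 10 kb either side were summed, and dDAVP was divided by vehicle within each experiment. The experiment number in the titles pairs the lists. Deviations from the treatment means over 12558 genes correlated at 0.62 within experiments. A start was called when a peak lay within 1000 bp of it. Members, lists and rules were chosen with earlier results of these data known. All 10 members are named, and up to 4 genes per other list with the largest smaller absolute log2 ratio among those on one side of 1. The αv subunit and ligands of αvβ6 are named as well. Alternatives were shorter or stricter lists, other windows, division by the ratio of all covered bases, no pairing, and leaving out each experiment. The interval arithmetic was tested on simulated data. Python 3.11.15, NumPy 2.4.6 and matplotlib 3.10.9 were used. Read counts were not used here, so no interval for counting error is given. The value of 1 marker gene is not reported here.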

Additional observations from a re-analysis of the deposited data

How the results depend on the processing

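The mean log2 ratio of Itgb6 was below 0 under every alternative run. It was -1.86 with lists cut to equal covered bases, carried by experiment 1 (ratios 0.109 and 0.693), where the broad peak of dDAVP replicate 1 drops out. It was -3.38 with peaks of fold 5 or more, where the broad peak drops out of both dDAVP lists, and -0.17 after division by the ratio of all covered bases. Equal covered bases left values for 7 genes, with 1 lower with dDAVP in both experiments (Itgb6) and 1 higher (Itga6), against 37.9% and 12.5% of 8036 genes. Division by the ratio of all covered bases gave 3 genes higher in both, against 43.6% of all. Without the replicate block, comparing treatment means, 8 genes were lower and 2 higher (Itgb1 and Itgb3), near the 77.4% and 22.5% of all genes, and Itgb6 had a log2 ratio of -0.56. Leaving out 1 experiment gave 6 to 10 genes lower and 0 to 4 higher. Without experiment 1 these were 10 and 0, against 95.2% and 4.79% of all genes, and without experiment 2 they were 6 and 4, against 54.0% and 45.9%.

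Among the 6 genes lower in both experiments, the mean log2 ratio turned positive for Itga6, to 0.52 at equal covered bases and 0.092 after division, and for Itga3, to 0.23 after division. The ratio of experiment 1 alone passed 1 for Itga6 with all lists cut to the shortest (1.09), with lists cut within experiments (1.05), without flanks (1.06) and at -log10 q of 5 or more (1.01). It did so for Itga3 without flanks (1.24) and at equal covered bases (1.23), and for Itgav at equal covered bases and at fold 5 or more (1.04 in each). Itga2 and Itgb8 had no ratio in 1 or both experiments under several stricter lists. The count of starts called in all 4 lists stayed within 1.5 times of 8 under its alternatives. With 2 experiments, and lists that cover 33.5 to 104 Mb at similar depth, differences between treatments cannot be told apart from differences in list length.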

Other observations

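Between experiments, Itgb6 differed less in covered bases than most genes. Experiment 2 held 0.661 times the bases of experiment 1 with dDAVP and 0.891 times with vehicle. Over 3484 genes covered in all 4 lists, with at least 10 kb in vehicle replicate 1, the medians were 0.322 and 0.484, and 143 and 115 genes had higher ratios than Itgb6. The 10 kb limit was chosen after the data had been seen. Itgb5, in the same set of genes, had 0.227 with dDAVP and 0.401 with vehicle. Itgb6 ranked 334 and 53 by covered bases among all genes in the dDAVP lists and 210 and 39 in the vehicle lists.

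The genes most like Itgb6 in covered bases over the 4 lists, by Euclidean distance of log2 values among 6243 genes with at least 2000 bp in each, were Scfd2, Vps13d, Mal, Pmepa1 and Soga1, at distances of 0.215 to 0.532. Scfd2 had 35627 and 24161 bp with dDAVP, against 53504 and 43794 with vehicle. Of these 5 genes, Scfd2, Pmepa1 and Soga1 had fewer covered bases with dDAVP in both experiments.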
